A study of Homo sapiens with 8 samples.

Results

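Cytosolic ribosomal protein genes encode the proteins of the ribosomes that translate messages from the nucleus. They were taken from the expression table by symbol: RPL or RPS followed by a number and at most the letter A, plus RPLP0, RPLP1, RPLP2, RPSA and RPS4X. This gave 77 genes of 19035 symbols, of which 46 belong to the large subunit and 31 to the small subunit, and all 77 passed the filter on low values, a mean of at least 1 TPM, that 11885 genes passed. TPM is transcript abundance scaled to a common total and corrected for transcript length. FAU, which encodes a further ribosomal protein as a fusion to a ubiquitin-type protein, and paralogs such as RPL22L1 lie outside the rule and are given separately.

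The libraries came from the human breast cancer line KPL-1 carrying a doxycycline-inducible Cas9 (iCas9). One group of 3 libraries was labelled sgEmpty (genotype given as WT) and the other group of 3 was labelled sgSETD1A (genotype given as SETD1A knockout). Both groups were harvested on day 7 of doxycycline, so the controls also carried induced Cas9. The labels do not say how many guides were used, whether the cells were clonal or whether replicates were grown separately. The p-values therefore reflect only how far these libraries scatter, which may be technical.

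A eukaryotic ribosome joins a small subunit, which binds the mRNA and reads its codons, to a large subunit, which joins amino acids and holds the tunnel through which the new protein leaves. Ribosomal proteins are needed in equal copy number, with the stalk proteins as the exception, and their mRNAs are among the most abundant of growing cells. Most of these mRNAs begin with a C followed by a run of pyrimidines, the terminal oligopyrimidine (TOP) tract, through which mTOR signalling and the RNA-binding protein LARP1 control their translation. Many of the genes have processed pseudogene copies, so the value of a single gene is less certain than its library error.

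Most members that could be matched to a promoter window shared a type of start. RefSeq windows (GRCh38.p14, 250 bases before the start and 50 from it on) were matched by symbol for 62 of the 77 genes. Of these, 42 (67.7%) had C at the start and a tract of at least 5 pyrimidines, against 5.68% of 8708 tested genes with a window and 4.04% of all 27305 windows. Shown here are the 60 bases before and the first 20 bases from the start, with the tract in capitals. The first 4 genes, and RPL13, which has no such tract, are among the largest falls of their subunit. The last 3 were not lower in sgSETD1A and carry the tract all the same.
RPL36A, chrX:101390951-101391030, plus strand: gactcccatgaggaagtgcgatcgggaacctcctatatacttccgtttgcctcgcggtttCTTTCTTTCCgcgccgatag
RPL7A, chr9:133348158-133348237, plus strand: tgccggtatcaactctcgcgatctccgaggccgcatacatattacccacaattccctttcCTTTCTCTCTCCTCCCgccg
RPS27, chr1:153990702-153990781, plus strand: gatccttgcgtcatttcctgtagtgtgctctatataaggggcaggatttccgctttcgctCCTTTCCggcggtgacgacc
RPS3, chr11:75399458-75399537, plus strand: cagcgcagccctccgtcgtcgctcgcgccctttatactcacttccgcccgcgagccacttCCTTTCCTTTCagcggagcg
RPL13, chr16:89560597-89560676, plus strand: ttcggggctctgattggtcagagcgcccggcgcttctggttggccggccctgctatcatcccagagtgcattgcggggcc
RPL21, chr13:27251498-27251577, plus strand: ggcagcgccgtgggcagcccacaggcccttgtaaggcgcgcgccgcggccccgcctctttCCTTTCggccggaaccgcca
RPL38, chr17:74203618-74203697, plus strand: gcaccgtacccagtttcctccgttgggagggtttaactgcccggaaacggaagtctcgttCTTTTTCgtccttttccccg
RPS12, chr6:132814509-132814588, plus strand: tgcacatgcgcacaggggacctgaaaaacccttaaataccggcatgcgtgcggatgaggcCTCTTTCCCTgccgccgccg

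SETD1A itself measured 17.5, 17.5 and 18.1 TPM in the sgEmpty libraries and 9.36, 11.3 and 10.7 TPM in the sgSETD1A libraries. The groups did not overlap (log2 change -0.71; limma adjusted p = 9.13e-05). Luminal breast markers were expressed in both groups. The summed level of 8 of them ran from 14370 to 15441 TPM in sgEmpty and from 16353 to 16870 TPM in sgSETD1A. The keratins KRT8, KRT18 and KRT19 made up most of that sum, while ESR1 ran from 38.5 to 41.2 TPM over all libraries. The summed level of 3 immune markers ran from 1.36 to 1.79 TPM and from 1.38 to 1.54 TPM, and the endothelial markers PECAM1 and CDH5 stayed under 0.1 TPM. Over all tested genes 28% were called higher and 13.5% lower in sgSETD1A (limma, adjusted p under 0.05), and 67.5% of the calls were higher with TPM as deposited, against 43.1% after median-ratio rescaling. The depth of the libraries is unknown, since TPM keeps none.

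Ribosomal protein mRNAs were very abundant in KPL-1 cells. Of the 77 genes, 34 were among the 50 genes with the highest mean TPM and 64 among the top 100. Their mean TPM had a median of 2843 and quartiles of 1797 and 4017. RPL39, a small protein that lines the exit tunnel, was the most abundant gene of the whole table, at 11051 ± 369 TPM (SD, n = 3) in sgEmpty. RPL37A, which binds zinc, and RPS27, a zinc-finger protein of the small subunit, ranked 4 and 3. At the other end RPL27A (named after its value was seen) stood at 195.6 ± 5.66 TPM (SD, n = 3) in sgEmpty, 788th of all genes. Only 7 members had a mean under 1000 TPM.

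Most ribosomal protein mRNAs were lower in the sgSETD1A libraries. Of the 77 genes, 59 (76.6%) fell, RPL21 alone rose and 17 were not called, beside 13.5% of all tested genes called lower, 28% called higher and 41.5% called in either direction. Abundant genes in general did not share this: of 711 other genes at or above the lowest member's mean TPM, 13.9% were called lower and 41.9% higher, 55.8% in all. The median change of the members was -0.16 log2, about 10.2% less, while the median over all tested genes was 0.073 log2. In 61 members every sgSETD1A library lay below every sgEmpty library, against 17.3% of all tested genes and 16.3% of the other abundant genes. In 1 member every sgSETD1A library lay above, against 36.4% and 50.1%. A change below 0 was found in 71 members, against 35.1% and 30.7%. Below -0.3 log2 were 5 of the 77 members (RPL36A, RPS2, RPL7A, RPS15A and RPS27). That share was lower than the 7.75% of all tested genes and higher than the 3.09% of the other abundant genes. The fall was called for 70 members after median-ratio rescaling, with none higher, beside 19.6% of all tested genes called lower. With the members left out of the total it was called for 68, with none higher, beside 17.5%. After quantile normalization it was called for 41, beside 17.3%. There 5 members were higher, beside 2142 of 11885 tested genes. These are bulk samples, in which fewer cells of a type and less RNA per cell cannot be told apart, and TPM is a share of the library, not an amount per cell.

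**Figure D1:**
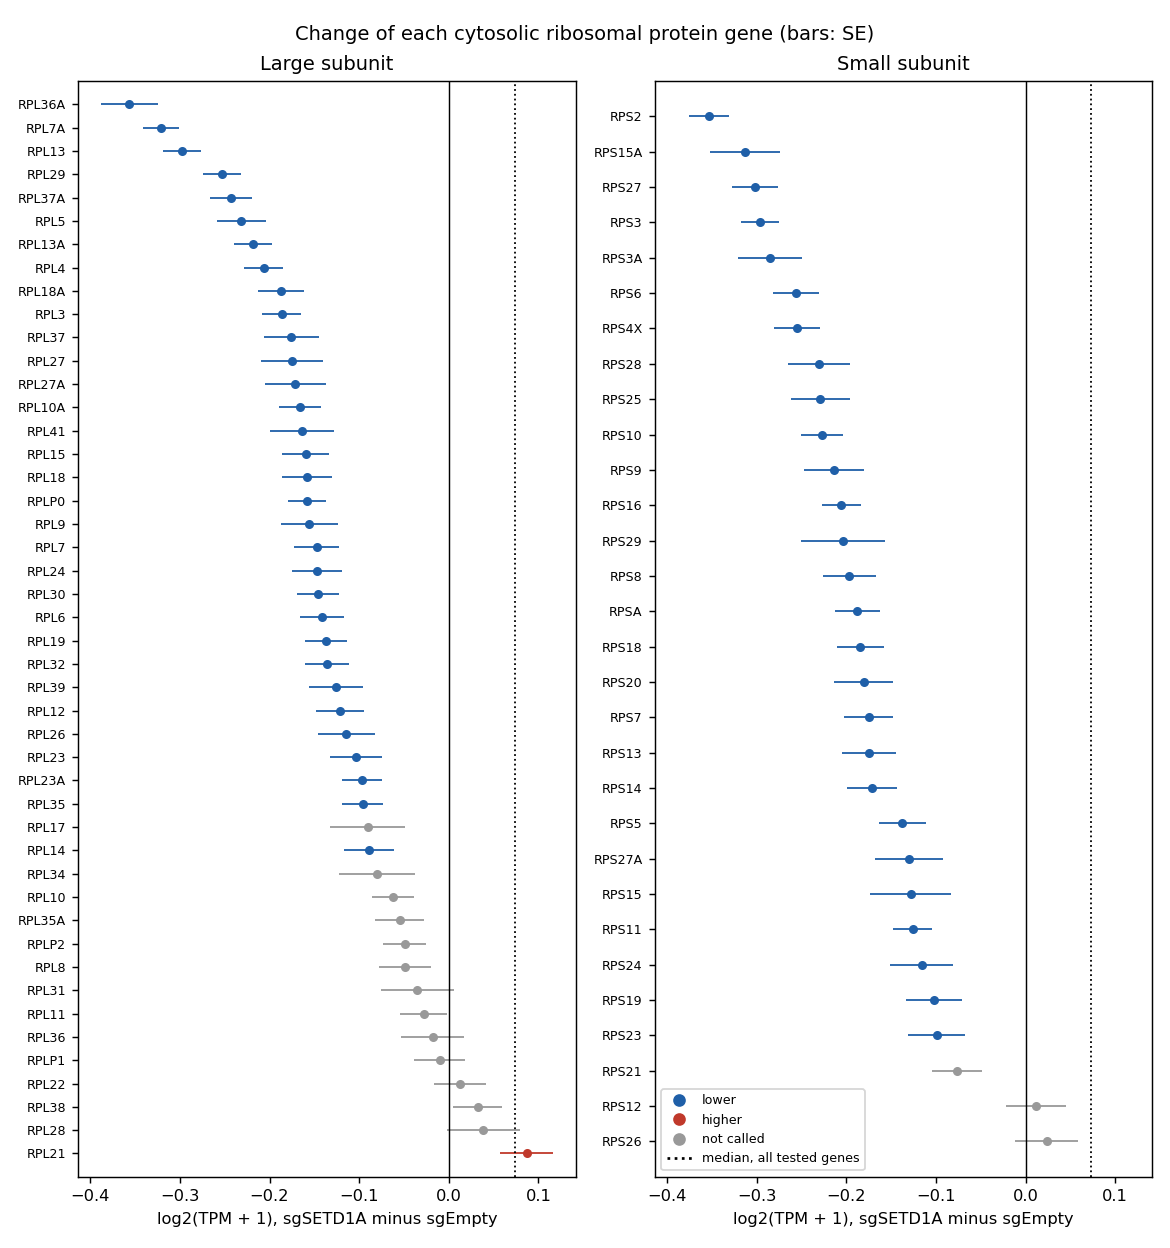
Change of each ribosomal protein gene (x axis, difference of mean log2(TPM + 1), sgSETD1A minus sgEmpty; bars, standard error of the limma fit, n = 3 and 3), large subunit at left and small subunit at right; 1 small subunit gene that was not called is not drawn. Blue points were called lower, red higher and grey not called at a limma adjusted p of 0.05; 59 are blue, and nearly all points lie left of the dotted line, the median of all tested genes at 0.073.

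Together the 77 genes took 25.9%, 26.9% and 26.7% of all TPM in the sgEmpty libraries and 23.7%, 23.6% and 23.6% in the sgSETD1A libraries. The groups did not overlap, and the share fell from 26.5 ± 0.52% to 23.7 ± 0.048% (SD, n = 3), a difference of -2.87 percentage points. The largest contributions came from genes of both subunits: RPS27 made up 6.29% of the summed difference, RPL37A 4.93%, RPS2 4.47% and RPS3 4.44%. The 10 genes with the largest TPM differences made up 40.9% of it.

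Among small subunit genes, 27 of 31 (87.1%) fell, none rose and 4 were not called. RPS2, which sits where mRNA enters the ribosome, measured 6011, 5866 and 5866 TPM in sgEmpty and 4658, 4670 and 4566 TPM in sgSETD1A. Each sgSETD1A library was far below each control, and the change was -0.35 log2 (SE 0.022; limma adjusted p = 7.69e-06). RPS3, its neighbour at the entry site, measured 6751, 6945 and 6892 TPM against 5601, 5552 and 5616 TPM, a change of -0.30 log2 (limma adjusted p = 1.59e-05). RPS2 and RPS3 thus held the groups apart by much more than the spread within them.

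RPS27 measured 9242, 9592 and 9776 TPM in sgEmpty and 7632, 7741 and 7831 TPM in sgSETD1A, a change of -0.30 log2 (limma adjusted p = 3.78e-05). RPS15A measured 5335, 5711 and 5867 TPM against 4400, 4475 and 4737 TPM. It was more variable than RPS2, yet the groups did not overlap (log2 change -0.31, SE 0.039; limma adjusted p = 3.25e-04). RPS3A measured 3787, 4082 and 3905 TPM against 3369, 3124 and 3171 TPM, and fell by 0.28 on the log2 scale (limma adjusted p = 3.45e-04). RPS6, the substrate after which the S6 kinases are named, measured 4307, 4437 and 4373 TPM against 3766, 3615 and 3607 TPM. The fall of RPS6 was 0.26 on the log2 scale (limma adjusted p = 9.52e-05). RPSA, also known as the laminin receptor, measured 1682, 1722 and 1727 TPM against 1527, 1475 and 1503 TPM, with a change of -0.19 log2 (limma adjusted p = 4.92e-04). RPS18, among the most abundant of the subunit, went from 7631 ± 231 to 6714 ± 80.5 TPM (SD, n = 3; log2 change -0.18; limma adjusted p = 6.40e-04).

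The small subunit genes that were not called lower included RPS21, RPS12 and RPS26. RPS21 measured 3212, 3393 and 3415 TPM in sgEmpty and 3178, 3191 and 3130 TPM in sgSETD1A. Its groups did not overlap, but it stayed just outside the threshold (log2 change -0.076; limma adjusted p = 0.0527). RPS12 measured 3221, 3455 and 3539 TPM against 3413, 3424 and 3454 TPM, and the sgSETD1A values lay within the range of the controls (log2 change 0.012; limma adjusted p = 0.801). RPS26, which lies at the exit of the mRNA channel, measured 383.0, 368.4 and 383.3 TPM against 401.0, 379.3 and 373.4 TPM, with overlapping groups (log2 change 0.023; limma adjusted p = 0.619). RPS15, of the small subunit's head, was called lower although its groups overlapped, at 1917, 1741 and 1791 TPM against 1588, 1759 and 1638 TPM (limma adjusted p = 0.0442). The call of RPS15 was kept in only 7 of the 15 other settings.

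Among large subunit genes, 32 of 46 (69.6%) fell, 1 rose and 13 were not called. RPL36A and RPS2 had the most negative changes of all members, at -0.36 and -0.35 log2, within their errors of each other. RPL36A measured 1907, 2033 and 2000 TPM in sgEmpty and 1589, 1542 and 1508 TPM in sgSETD1A (log2 change -0.36, SE 0.032; limma adjusted p = 5.16e-05). The read-through transcript RPL36A-HNRNPH2, which shares exons with it, was named after its values were seen and was listed separately, with group means of 170.9 ± 5.03 and 176.4 ± 4.35 TPM (SD, n = 3; log2 change 0.046; limma adjusted p = 0.335). RPL7A measured 5502, 5504 and 5503 TPM against 4370, 4431 and 4411 TPM. This gene was the most even of the controls and held the groups clearly apart (log2 change -0.32, SE 0.020; limma adjusted p = 7.69e-06). RPL13 measured 5006, 4972 and 5024 TPM against 4043, 4133 and 4030 TPM, a change of -0.30 log2 (limma adjusted p = 1.64e-05). RPL29, a heparin-binding protein, went from 3092 ± 19.0 to 2595 ± 11.4 TPM (SD, n = 3; log2 change -0.25). RPL37A went from 9101 ± 207 to 7688 ± 71.0 TPM (SD, n = 3; log2 change -0.24). Both passed the threshold (limma adjusted p = 3.83e-05 and 7.71e-05), but RPL37A was at 0 after quantile normalization. RPL39 fell less, from 11051 ± 369 to 10126 ± 273 TPM (SD, n = 3; log2 change -0.13; limma adjusted p = 0.00885). The call of RPL39 was lost without the filter (limma adjusted p = 0.0540) and without the trend (limma adjusted p = 0.0710). It was also lost after quantile normalization, which put RPL39 at 0. Quantile normalization gives every rank the same value in all libraries, so it cannot show a change in a gene that keeps its rank.

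RPL5 and RPL11 enter the large subunit together with the 5S ribosomal RNA, and the same complex can bind MDM2 and restrain the breakdown of p53. RPL5 measured 1585, 1639 and 1626 TPM in sgEmpty and 1409, 1343 and 1379 TPM in sgSETD1A, with no overlap (log2 change -0.23, SE 0.027; limma adjusted p = 2.44e-04). RPL11 measured 2666, 2747 and 2789 TPM against 2633, 2692 and 2718 TPM, and these groups overlapped (log2 change -0.028, SE 0.026; limma adjusted p = 0.409). RPL11 was called lower after median-ratio rescaling (log2 change -0.11; limma adjusted p = 0.0126) and with the members left out of the total (log2 change -0.083; limma adjusted p = 0.0453). The difference between the changes of RPL5 and RPL11 was not tested.

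The stalk of the large subunit, which recruits the translation factors that split GTP, is built from RPLP0 as its base and from RPLP1 and RPLP2. RPLP0 measured 3419, 3460 and 3426 TPM in sgEmpty and 3060, 3098 and 3077 TPM in sgSETD1A, and it fell by 0.16 on the log2 scale (limma adjusted p = 4.75e-04), a call lost after quantile normalization (log2 change -0.041; limma adjusted p = 0.119). RPLP1 measured 5799, 5757 and 5619 TPM against 5514, 5905 and 5639 TPM, with the sgSETD1A libraries on both sides of the controls (log2 change -0.010; limma adjusted p = 0.793). RPLP2 measured 2171, 2228 and 2182 TPM against 2088, 2157 and 2114 TPM. Every sgSETD1A value of RPLP2 was the lower one, but the difference was small (log2 change -0.049; limma adjusted p = 0.131). After median-ratio rescaling both RPLP1 (log2 change -0.089; limma adjusted p = 0.0437) and RPLP2 (log2 change -0.13; limma adjusted p = 0.00506) were called lower.

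RPL21 was the only member called higher. It measured 2565, 2651 and 2648 TPM in sgEmpty and 2878, 2689 and 2787 TPM in sgSETD1A, with every sgSETD1A library above the controls (log2 change 0.087, SE 0.030; limma adjusted p = 0.0410). After median-ratio rescaling its change was 0.0078 log2, and the call was lost in 10 of the 15 other settings. RPL38, a protein tied to the translation of Hox mRNAs in mice, measured 3495, 3574 and 3472 TPM against 3693, 3486 and 3600 TPM (log2 change 0.032; limma adjusted p = 0.365). RPL28 measured 840.5, 820.0 and 793.2 TPM against 804.8, 892.9 and 824.2 TPM (log2 change 0.039; limma adjusted p = 0.474). In RPL38 and RPL28 the groups overlapped, and both changes turned negative after median-ratio rescaling, at -0.047 and -0.040 log2.

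RPL22, which also binds small RNAs of Epstein-Barr virus, measured 380.1, 393.1 and 391.0 TPM against 397.8, 387.2 and 388.9 TPM, with overlapping groups (log2 change 0.012; limma adjusted p = 0.761). RPL10, which joins the large subunit late in its assembly, measured 1303, 1311 and 1299 TPM against 1251, 1261 and 1235 TPM. All its sgSETD1A values were below the controls, but the call was missed (log2 change -0.062; limma adjusted p = 0.0581). The other large subunit genes not called were RPL17, RPL34, RPL35A, RPL8, RPL31 and RPL36, with changes from -0.091 log2 for RPL17 to -0.018 log2 for RPL36 and overlapping groups in each. Median-ratio rescaling called RPS21, RPL10, RPL17, RPL34, RPL35A, RPL8 and RPL36 lower, as did, RPL36 apart, leaving the members out of the total. A minimum mean of 5 TPM also called RPS21 lower (limma adjusted p = 0.0490). Quantile normalization called RPL34 lower (log2 change -0.17) and RPL38, RPS12, RPL8 and RPL35A higher, at 0.11, 0.11, 0.10 and 0.063 log2. Without sgEmpty replicate 1, RPS21, RPL17, RPL34 and RPL31 were called lower, at -0.10, -0.14, -0.13 and -0.085 log2. RPL17, RPL34 and RPL31 were among the more variable members in sgEmpty, with coefficients of variation of 5.47%, 6.05% and 5.90%.

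**Figure D2:**
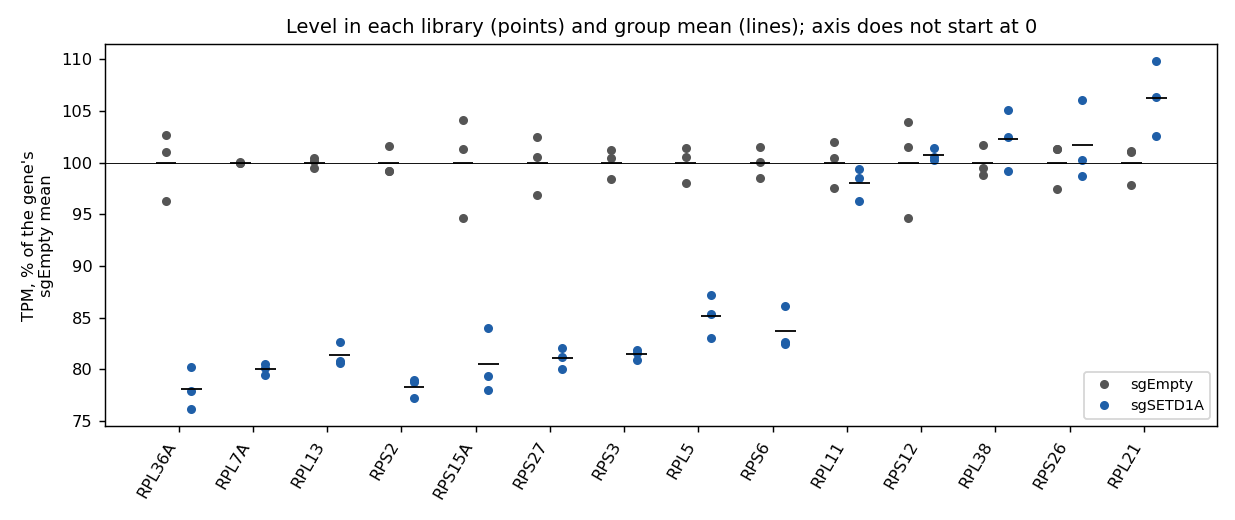
Level of 14 members in each library (points) as a percentage of that gene's sgEmpty mean, with group means as lines; the y axis does not start at 0. The 9 genes from RPL36A to RPS6 have all sgSETD1A points below the controls, RPL11, RPS12, RPL38 and RPS26 overlap, and RPL21 lies above.

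The median change was further below 0 for small subunit genes than for large subunit genes. It was -0.18 log2 (quartiles -0.23 and -0.13), against -0.14 log2 (quartiles -0.17 and -0.067) for the large subunit. The ranges overlapped nearly in full, from -0.35 to 0.023 log2 for the small and from -0.36 to 0.087 log2 for the large subunit. In summed TPM, the large subunit took 14.60%, 15.06% and 14.97% of the sgEmpty libraries and 13.6%, 13.5% and 13.5% of the sgSETD1A libraries. The small subunit took 11.3%, 11.8% and 11.8% against 10.2%, 10.1% and 10.1%. Both sums were lower in every sgSETD1A library, and their means fell by 8.97% for the large and fell by 13.2% for the small subunit.

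The ratio of large to small subunit TPM does not move when a library is rescaled by a factor, since both sums move together. It was 1.287, 1.271 and 1.272 in sgEmpty and 1.336, 1.340 and 1.338 in sgSETD1A, so the groups did not overlap, and all sgSETD1A values were the higher ones. Without the 5 most abundant genes of each subunit the ratio was 1.387, 1.371 and 1.367 against 1.410, 1.419 and 1.413, again with no overlap and with a smaller gap. With genes weighted equally, the mean log2(TPM + 1) of the small subunit genes exceeded that of the large by 0.26, 0.26 and 0.27 in sgEmpty and by 0.21, 0.21 and 0.21 in sgSETD1A. No p is given for these sums, because the members were chosen with results of these data known.

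**Figure D3:**
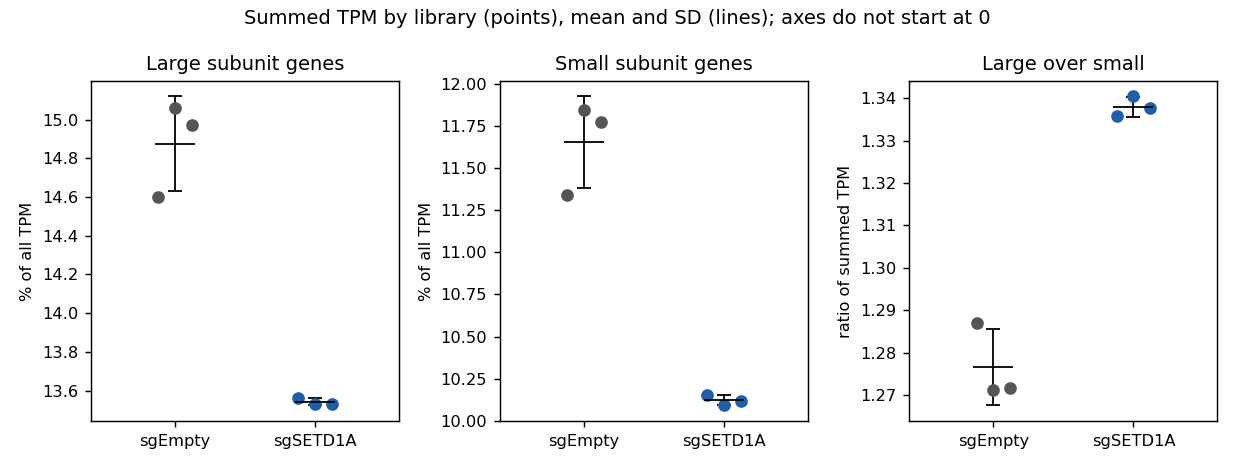
Summed TPM of the large and the small subunit genes as a percentage of all TPM, and their ratio, in each library (points) with the mean and SD of each group (lines, n = 3); the y axes do not start at 0. Both shares are lower in every sgSETD1A library and the ratio is higher, 1.336 to 1.340 against 1.271 to 1.287.

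The spread of changes between genes was wider than the typical error of a gene. The changes spanned 0.44 log2 from RPL36A to RPL21, with a standard deviation of 0.094 log2 between genes, while the median standard error of a gene was 0.028 log2. At or below -0.2 log2 lay 21 members, 13 of them of the small subunit. Another 34 lay between that and -0.1 log2, and 22 lay above -0.1 log2. The spread between replicates was near that of other abundant genes: the median coefficient of variation of a member was 2.25% in sgEmpty and 1.73% in sgSETD1A, against 4.77% and 5.13% over all tested genes and 2.70% and 2.57% over the other abundant genes. RPS29 (named after its values were seen) was the least even member in sgEmpty, at 6783, 7924 and 7336 TPM, a coefficient of variation of 7.77%.

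Members deviated together in 1 control library. In sgEmpty replicate 1, 56 of the 77 genes (72.7%) had the lowest value of the sgEmpty group, against 34.8% of all tested genes, and its medians lay at -0.022 log2 for the large and -0.036 log2 for the small subunit, relative to each gene's sgEmpty mean. Its part in the result was not tested beyond leaving it out: without this library 61 members were called lower and none higher. Over all tested genes 11.6% were then called lower. In sgSETD1A, the lowest value was shared more evenly over the libraries, with 28, 28 and 21 members.

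**Figure D4:**
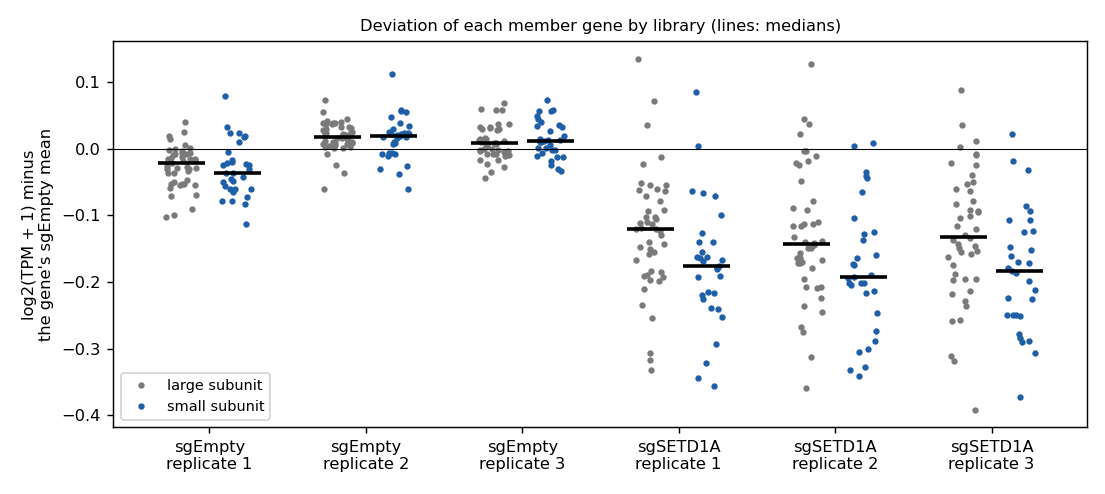
Each point is a ribosomal protein gene in 1 library, as log2(TPM + 1) minus that gene's mean over the sgEmpty libraries; grey points are large subunit genes, blue points small subunit genes, and lines are medians. The medians of sgEmpty replicate 1 lie slightly below 0, at -0.022 and -0.036, and those of the 3 sgSETD1A libraries between -0.12 and -0.19.

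The size of the change went only loosely with the level of the gene. Over the 31 small subunit genes the correlation of mean TPM with the log2 change was -0.50 (Pearson; Spearman -0.45), and over the 46 large subunit genes -0.12 (Spearman -0.10). These are descriptions across genes, which share libraries and the same TPM total. The 26 most abundant members had a median change of -0.19 log2, and the 25 least abundant -0.14 log2. The span of the gene in RefSeq bore little relation to the change (Pearson 0.042 over all 77).

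Within the members, a tract at the annotated start did not go with a larger change. The 42 genes with such a start had a median change of -0.15 log2, and the 20 genes without it -0.16 log2. Of these, 30 and 16 were called lower. The tract was sought only from the annotated RefSeq base on. RPL4, RPL9 and RPL10A, counted as without it, have pyrimidine runs a few bases further on. The 20 genes therefore cannot be taken to lack TOP mRNAs, and the comparison cannot decide whether TOP tracts go with the change. Other motifs searched in the windows were TATAA in the 50 bases before the start on the gene's strand, and CCGGAAG, AANATGGC and GGGCGG on both strands. TATAA was found in 6 of 62 members (9.68%), against 2.73% of tested genes and 5.12% of all windows. All 6 genes with TATAA were called lower, with a median of -0.20 log2, and 40 of the 56 without it, with a median of -0.14 log2. CCGGAAG, the core letters of ETS-type sites, was found in 33.9% of members and 19.7% of tested genes, and AANATGGC, the core of YY1-type sites, in 16.1% and 10.7%. Over all windows the shares of CCGGAAG and AANATGGC were 10.7% and 6.82%. GGGCGG, the GC box, was less frequent in members (54.8%) than in tested genes (71.5%), but more frequent than in all windows (44.6%). The 34 members with it had a median of -0.18 log2, and the 28 without it -0.12 log2. A match is a description of letters in a window and not a bound site.

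Of the ribosomal protein paralogs outside the rule, RPL26L1 stood alone. It measured 152.7, 151.7 and 155.3 TPM in sgEmpty and 95.7, 91.4 and 88.6 TPM in sgSETD1A, with no overlap (log2 change -0.73, SE 0.039; limma adjusted p = 4.04e-06). This was a larger change than that of any member. RPL26 (named as the gene it resembles), a protein near the exit of the tunnel, went from 4529 ± 185 to 4181 ± 79.0 TPM (SD, n = 3; log2 change -0.11; limma adjusted p = 0.0177), and was 29.6 times as abundant in sgEmpty on the TPM scale, and 45.5 times in sgSETD1A. RPL26 was called lower in 9 of the 15 other settings, and was not called after quantile normalization (log2 change -0.045, limma adjusted p = 0.252). The other 5 tested paralogs, RPL7L1, RPL22L1, RPL36AL, RPL39L and RPS27L, were not called. RPS27L, which p53 induces, measured 192.3, 200.4 and 215.6 TPM against 207.9, 216.0 and 222.6 TPM (log2 change 0.088; limma adjusted p = 0.152), beside the fall of RPS27. Without sgEmpty replicate 3 RPS27L was called higher (log2 change 0.13; limma adjusted p = 0.0461). RPL36AL measured 1386, 1373 and 1316 TPM against 1429, 1386 and 1394 TPM (log2 change 0.047; limma adjusted p = 0.210), beside the fall of RPL36A. RPL22L1 and RPL39L had changes of -0.062 and 0.086 log2 (limma adjusted p = 0.368 and 0.275). RPL3L and RPL10L were below the filter.

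Ribosomal proteins are also made as fusions. RPS27A, a member that carries ubiquitin in front of the ribosomal protein, went from 2673 ± 134 to 2442 ± 68.2 TPM (SD, n = 3; log2 change -0.13; limma adjusted p = 0.0213). It was called lower in 9 of the 15 other settings, and the call was lost after quantile normalization, without the filter, without the trend, and without sgEmpty replicate 2 or 3 or sgSETD1A replicate 2. FAU measured 1387, 1340 and 1357 TPM against 1222, 1343 and 1280 TPM (log2 change -0.088; limma adjusted p = 0.0710). FAU was called lower after median-ratio rescaling (log2 change -0.17), with the members left out of the total (log2 change -0.14) and without sgSETD1A replicate 2 (log2 change -0.12).

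Other genes known for TOP mRNAs were listed apart, among them elongation factors, initiation factors and partners of the ribosome. Calls were made for 12 of 20, each of them lower, around a median of -0.11 log2, against 13.5% of all tested genes called lower. The other 8 were not called. Among them NPM1, a nucleolar chaperone named after its values were seen, lay above the controls in every sgSETD1A library. Its change was small and missed the threshold (log2 change 0.068, limma adjusted p = 0.0893). Quantile normalization added 2 calls higher, beside 2142 of 11885 tested genes called higher. EEF1B2, which recharges the elongation factor that brings tRNAs, measured 1442, 1540 and 1476 TPM in sgEmpty and 1192, 1162 and 1183 TPM in sgSETD1A. The groups were well apart (log2 change -0.33; limma adjusted p = 5.20e-05). EEF1G, of the same complex, went from 3533 ± 19.5 to 2981 ± 34.4 TPM (SD, n = 3; log2 change -0.25; limma adjusted p = 5.16e-05).

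Initiation factors outside that list had no member called lower. Of 21 tested, 11 rose and none fell, with a median of 0.10 log2, against 28% of all tested genes called higher. After median-ratio rescaling 9 rose and 1 fell, against 1766 of 11885 tested genes higher and 19.6% lower. EIF4A2, an RNA helicase, measured 129.9, 137.7 and 151.6 TPM against 169.8, 190.9 and 192.9 TPM (log2 change 0.40; limma adjusted p = 0.00126). EIF5, which triggers GTP splitting once the start codon is found, measured 133.9, 132.4 and 133.3 TPM against 174.9, 169.0 and 174.4 TPM, a rise of 0.37 log2 (limma adjusted p = 4.30e-05). In both genes all sgSETD1A libraries lay above the controls.

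Of 12 genes for chaperones and importers of ribosomal proteins, calls were 2 higher (16.7%) and 1 lower (8.33%), with a median of 0.092 log2, against 28% and 13.5% of all tested genes. Median-ratio rescaling left 0 higher, beside 1766 of 11885 tested genes called higher. BCCIP, which accompanies RPL23, went from 93.8 ± 3.20 to 108.0 ± 5.75 TPM, and AAMP from 166.5 ± 4.67 to 185.7 ± 10.2 TPM (SD, n = 3; limma adjusted p = 0.00870 and 0.0208). The call of AAMP was lost under the 3 rescalings, without the trend, without sgEmpty replicate 1 or 2 and without sgSETD1A replicate 2 or 3, and that of BCCIP under median-ratio rescaling. RPS19BP1, which binds RPS19, went from 82.2 ± 1.77 to 69.8 ± 5.12 TPM (SD, n = 3; log2 change -0.24; limma adjusted p = 0.00748).

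Of 16 regulators of ribosomal protein mRNAs, 6 rose (37.5%) and 2 fell (12.5%), against 28% and 13.5% of all tested genes. The counts became 3 and 4 under median-ratio rescaling, or 4 and 4 under quantile normalization. Over all 11885 tested genes, 1766 rose and 2333 fell under median-ratio rescaling, and 2142 rose and 2056 fell under quantile normalization. Without sgEmpty replicate 3, 5 rose and 1 fell, against 2639 and 1288 of 11888 tested genes. MTOR itself, named after its values were seen, was not called (log2 change -0.012, limma adjusted p = 0.853). RPTOR, the subunit that defines mTOR complex 1, measured 9.79, 8.88 and 9.30 TPM in sgEmpty and 7.27, 7.32 and 6.72 TPM in sgSETD1A, with no overlap (log2 change -0.35; limma adjusted p = 0.00352). MLST8, which both mTOR complexes contain, went from 35.3 ± 2.07 to 28.2 ± 3.58 TPM (SD, n = 3; log2 change -0.32; limma adjusted p = 0.0143), a call lost without sgEmpty replicate 3 (limma adjusted p = 0.0554). RPS6KB2, one of the kinases of RPS6, went from 73.2 ± 3.22 to 86.6 ± 2.29 TPM (SD, n = 3; log2 change 0.24; limma adjusted p = 0.00237). TBPL1, a relative of the TATA-binding protein, went from 15.6 ± 1.33 to 18.7 ± 0.26 TPM (SD, n = 3). The change of TBPL1 was 0.25 log2 (limma adjusted p = 0.0153). Its call was lost under median-ratio rescaling, quantile normalization and the total without the members (limma adjusted p = 0.0712, 0.0559 and 0.0512). None of the 10 listed host genes of small nucleolar RNAs, such as GAS5, was among the symbols analysed.

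Mitochondrial ribosomal protein genes, which serve another ribosome, had a wider range of changes than the cytosolic ones. Of 76 tested, 26 fell (34.2%) and 11 rose (14.5%), against 13.5% and 28% of all tested genes. The counts became 34 and 2 under median-ratio rescaling, or 30 and 7 under quantile normalization. Over all 11885 tested genes, 2333 fell and 1766 rose under median-ratio rescaling, and 2056 fell and 2142 rose under quantile normalization. Their changes ran from -0.94 to 0.30 log2, with a standard deviation of 0.28 log2 between genes, against 0.094 log2 for the cytosolic genes and 0.26 log2 for all tested genes. The quartiles of the mitochondrial genes, -0.26 and 0.079 log2, enclosed those of the cytosolic ones, -0.21 and -0.096 log2.

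**Figure D5:**
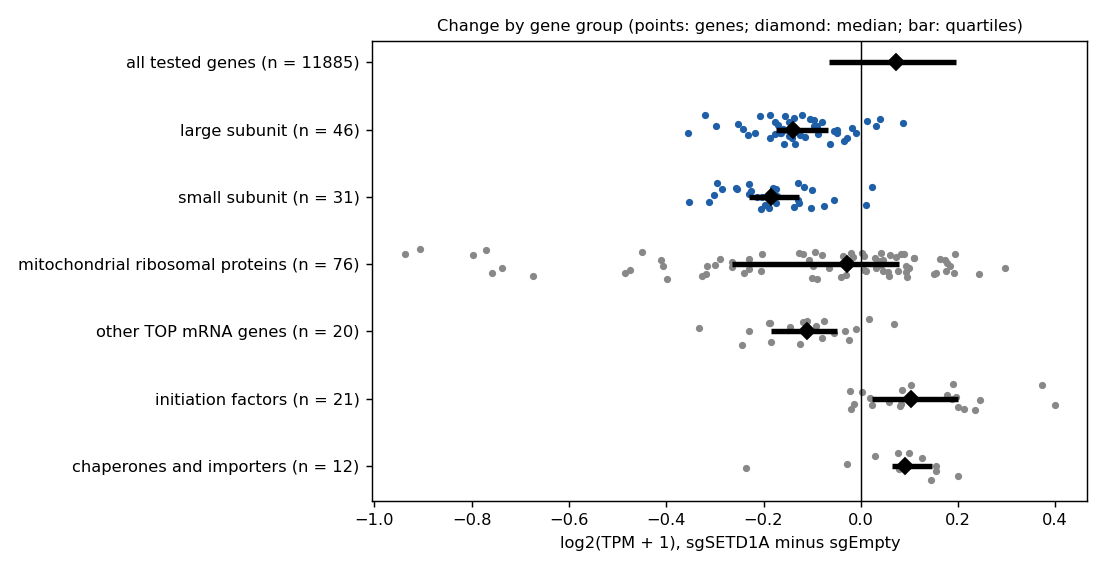
Change by gene group (x axis, difference of mean log2(TPM + 1), sgSETD1A minus sgEmpty): points are genes, diamonds medians and thick bars quartiles; single points are left out for all tested genes. The medians of the large (-0.14) and small subunit genes (-0.18) and of other TOP mRNA genes (-0.11) lie left of 0, those of initiation factors (0.10) and of chaperones and importers (0.092) right of it, and the quartiles of mitochondrial ribosomal proteins (-0.26 and 0.079) lie on both sides of 0.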

How the data were processed

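RNA was measured in 3 sgEmpty and 3 sgSETD1A libraries made with a stranded mRNA kit, per the labels. The authors deposited TPM values per gene symbol, and these were used as deposited. Per the submitters' processing notes, bcl2fastq 2.20.0, STAR 2.6.0c, RSEM 1.3.1 and the hg19 build were used, with no role given for each. The annotation: not given in the sources used here. A row with no gene name, equal to the column total, was left out. TPM keeps no depth, so no count test was run. The deposited guide counts were not used, since no guide is named for these genes.

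Values were fitted as log2(TPM + 1) in limma 3.58.1 (R 4.3.3), letting the prior variance follow the mean, for genes with a mean of at least 1 TPM; the fold changes are on that scale. Benjamini-Hochberg adjustment ran over all 11885 tested genes, with a threshold of 0.05. The fit was tested on simulated data with the means and spreads of all 11885 tested genes, most of them less abundant than the members. Of the genes changed by 0.15 log2, 4% were called, and of those changed by 0.3 log2, 46%. Of all calls 4.2% were false. Only 200 genes were changed in the simulation, while 4932 were called in the data. The adjusted threshold was therefore stricter in the simulation, and these shares cannot be read as the power for the members. Groups and replicate numbers came from the titles. Lists are described by counts and medians, with no test. The members, lists and the rule for named genes were chosen with earlier results of these data known. That rule took SETD1A, the 6 most negative and 3 most positive changes and the 2 highest levels of each subunit, members with a call unlike the majority, genes with a stated role or a paralog, and the 2 largest called changes in each direction of each other list. The other settings were other scalings, pseudocounts, filters, a fit with no trend, a replicate block and leaving out each library. Counts and sums cover all members, but values of 2 genes that the rule would name are not reported here. Promoter windows came from RefSeq (GRCh38.p14), matched by symbol. Figures were drawn with matplotlib 3.10.9 in Python 3.11.15.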

Additional observations from a re-analysis of the deposited data

How the results depend on the processing

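Of the 77 genes, 38 were called lower in each of the 15 other settings, 20 of the large and 18 of the small subunit. The median change of the large subunit was -0.218 log2 after median-ratio rescaling, -0.0775 after quantile normalization and -0.194 with the members left out of the total, and that of the small subunit -0.263, -0.0980 and -0.240. Quantile normalization gives each rank 1 value in all libraries, and 34 of the top 50 ranks were members. The count of members called higher was 5 after quantile normalization and 0 after median-ratio rescaling, with the members left out of the total, without a filter, without the trend and with the replicate block; leaving out 1 library gave 0 to 1. Members called lower numbered 52 to 61 when 1 library was left out, all calls 3660 to 5075, the subunit medians -0.152 to -0.127 and -0.203 to -0.167, and the difference in the members' share of TPM -3.16 to -2.68 percentage points.

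RPS24, called lower at -0.116 log2, was at 0.0593 and not called after quantile normalization, which put RPL37A and RPL39 at 0. The other genes named here that changed sign had not been called. After median-ratio rescaling RPL28 was at -0.0404, RPL38 -0.0469, RPS26 -0.0553, RPS12 -0.0673, RPL22 -0.0667 and RPL36AL -0.0320 log2. After quantile normalization RPL28 was at -0.0705, RPS26 -0.0229, RPL35A 0.0630, RPLP2 0.0111, RPL8 0.101, RPL31 0.0176, RPL11 0.0201, RPL36 0.0578, RPLP1 0.0506, RPL22 -0.0329 and RPS21 0.05002 log2. With the members left out of the total RPL28 was at -0.0167, RPL38 -0.0232, RPS26 -0.0317, RPS12 -0.0436, RPL22 -0.0431 and RPL36AL -0.00832 log2. Leaving out 1 library, changes ran from -0.0279 (without sgEmpty replicate 1) to 0.0401 for RPS12, -0.00289 (sgEmpty replicate 1) to 0.0214 for RPL22, -0.0479 to 0.0162 (sgEmpty replicate 3) for RPL36, -0.00703 (sgSETD1A replicate 1) to 0.0443 for RPS26, -0.0379 to 0.0116 (sgSETD1A replicate 1) for RPLP1 and -0.00565 (sgSETD1A replicate 2) to 0.0692 for RPL28.

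The replicate numbers were not taken to pair the libraries: deviations of libraries with the same number correlated at 0.085, -0.10 and 0.17 across genes, and not every library correlated best with its own number. With the replicate block 4642 genes were called in all, and 56 members were lower and 0 higher. The unknown depth of the RNA libraries limits what can be said of genes near the filter, none of which is a member.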
